A study of Mus musculus with 10 samples.

Results

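Krtdap, Hrnr, Rptn, Crct1, Sprr1b, Sprr1a, Serpinb12, Stfa3, Tmprss11a and Ly6d are genes of the cornified envelope and of squamous differentiation. They were taken by gene symbol and were chosen by measured values of these same arrays, chiefly their irradiated minus unirradiated differences, which are therefore described here without a test. They are 10 of the 18193 genes that a probe set of 1 gene reads on the array, and 13 of the 45101 probe sets read them. All 10 passed the filter on low signals, which asked that at least 2 arrays read the gene above their own median. Of these, 8 passed through irradiated arrays alone, so their passing is no support for a difference.

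Total RNA of the distal colorectum, taken about 1 cm above the anus of C57BL/6J mice, was hybridised to 10 Affymetrix arrays, 1 sample to each. Irradiated knockout (KO) mice were Pdgfc-/- and received 25 Gy of local γ-rays at 2.14 Gy/min under chloral hydrate, with tissue taken 8 weeks later (n = 3). Irradiated wild-type (WT) mice were Pdgfc+/+ and were treated in the same way (n = 3). Unirradiated KO mice (n = 2) and unirradiated WT mice (n = 2) had no irradiation. Pdgfc encodes a secreted growth factor that acts on mesenchymal cells through PDGF receptors. The labels call the replicates biological; the sources used here do not give age, sex or the way the Pdgfc allele was made. Values are MAS5 signals on the log2 scale, so that a difference of 1 is a doubling, and KO minus WT or irradiated minus unirradiated differences are positive where the first is higher.

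The cornified envelope is a shell of cross-linked protein that replaces the plasma membrane of squamous cells as they die at the surface of skin and of lining epithelia such as that of the mouth and oesophagus. Small proline-rich proteins, loricrin, involucrin, late cornified envelope proteins and S100-fused proteins such as filaggrin and hornerin are its precursors, and transglutaminases join them. Many of the precursor genes lie side by side in the epidermal differentiation complex. The colon is lined by columnar cells that build no such envelope, and squamous epithelium begins in the anal canal.

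Array medians lay between 6.64 and 7.18. Xist and the Y-linked transcripts split the arrays: a female pattern was present on KO irradiated replicate 1 and on all 3 irradiated WT arrays, and a male pattern on the other 6. In WT tissue the sex pattern and irradiation therefore cannot be told apart. The Gapdh 3' minus 5' signal, a sign of RNA quality, was -0.54 to -0.35 on irradiated arrays and -0.32 to 0.02 on unirradiated ones. These ranges did not overlap, and the lowest value was that of irradiated WT replicate 3. The part of RNA quality in the differences was not tested. Pdgfc read 7.15, 6.26 and 7.10 in irradiated KO mice against 8.57, 8.75 and 8.67 in irradiated WT mice, and 6.42 and 5.62 in unirradiated KO mice against 7.01 and 7.50 in unirradiated WT mice. The sources used here do not say whether its probe set lies in the deleted part. Absorptive colonocyte markers, 13 of 13 on the array, averaged 11.66 to 12.74 on irradiated arrays and 13.21 to 13.79 on unirradiated ones, so the markers of the labelled tissue were present.

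One array stood apart for these genes. On irradiated WT replicate 3 only 4 of the 10 genes lay above the array median, against 10 of 10 on each of the other 5 irradiated arrays. The mean of the 10 genes was 6.43 on it, against 12.17 and 11.14 on the other irradiated WT arrays and 13.07, 11.24 and 12.35 on the irradiated KO arrays. It was 2.91 and 2.80 in unirradiated KO mice and 3.88 and 4.38 in unirradiated WT mice. Differences and counts in irradiated WT tissue are therefore given without this array too wherever leaving it out moved them.

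The promoters of 5 of the genes are shown. Of these, 4 were picked because they carry both an AP-1 site and a TATA box close to the start of transcription. Those of Serpinb12 and Stfa3, with an AP-1 site but no TATA box close to the start, and that of Tmprss11a are not shown. Whether the promoters bear on the signals was not tested. Each runs from 250 bases before the start to 50 bases after it, 5′ to 3′ on the strand of the gene, from RefSeq (GRCm38.p6). Capitals mark the AP-1 motif TGANTCA and the TATA box TATAAA, which do not overlap in these sequences. Hrnr has a TATA box but no AP-1 motif in this window and is shown for contrast.
Sprr1a, chr3:92485832-92486131, minus strand: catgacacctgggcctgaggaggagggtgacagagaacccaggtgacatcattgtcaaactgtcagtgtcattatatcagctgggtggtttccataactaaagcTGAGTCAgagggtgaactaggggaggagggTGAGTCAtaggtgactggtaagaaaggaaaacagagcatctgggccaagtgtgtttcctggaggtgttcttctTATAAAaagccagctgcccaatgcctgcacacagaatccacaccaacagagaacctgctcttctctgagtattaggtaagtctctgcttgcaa
Sprr1b, chr3:92438730-92439029, minus strand: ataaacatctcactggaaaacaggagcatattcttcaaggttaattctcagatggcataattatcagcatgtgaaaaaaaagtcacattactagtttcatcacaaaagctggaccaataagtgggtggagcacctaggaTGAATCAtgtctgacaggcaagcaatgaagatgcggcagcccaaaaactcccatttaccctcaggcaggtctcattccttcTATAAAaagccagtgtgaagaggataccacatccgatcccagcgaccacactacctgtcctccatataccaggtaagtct
Rptn, chr3:93393449-93393748, plus strand: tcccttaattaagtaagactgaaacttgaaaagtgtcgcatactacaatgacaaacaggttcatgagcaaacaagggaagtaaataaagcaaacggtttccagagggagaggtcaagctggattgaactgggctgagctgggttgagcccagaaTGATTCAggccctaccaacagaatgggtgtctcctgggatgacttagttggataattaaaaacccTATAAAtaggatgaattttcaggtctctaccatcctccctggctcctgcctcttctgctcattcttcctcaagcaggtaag
Krtdap, chr7:30787655-30787954, plus strand: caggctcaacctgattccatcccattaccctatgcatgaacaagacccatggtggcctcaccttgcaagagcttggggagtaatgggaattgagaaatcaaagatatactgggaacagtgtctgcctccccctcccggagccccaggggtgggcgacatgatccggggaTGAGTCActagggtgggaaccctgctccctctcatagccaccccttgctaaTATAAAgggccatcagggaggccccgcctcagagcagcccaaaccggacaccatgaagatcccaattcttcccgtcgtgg
Hrnr, chr3:93319499-93319798, plus strand: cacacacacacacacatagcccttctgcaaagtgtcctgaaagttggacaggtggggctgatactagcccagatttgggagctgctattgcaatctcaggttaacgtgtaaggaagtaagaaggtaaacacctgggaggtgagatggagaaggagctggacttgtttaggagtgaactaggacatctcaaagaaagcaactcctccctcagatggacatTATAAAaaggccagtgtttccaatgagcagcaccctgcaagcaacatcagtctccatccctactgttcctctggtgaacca
Both motifs were searched on both strands, together with GGGNGTGG, the site of Klf factors. Of the 8 genes matched to a RefSeq promoter, 6 (Krtdap, Rptn, Serpinb12, Sprr1a, Sprr1b and Stfa3) held an AP-1 motif, against 7.81% of all 32851 promoters of this length. The TATA box was present in 6 of the 8 (13.6% of all promoters) and the Klf site in 2, Serpinb12 and Stfa3 (17.6% of all promoters). Tmprss11a held none of these motifs. Counted from the start of transcription, with -1 the base before it, the AP-1 motif began at -146 and -116 in Sprr1a, -111 in Sprr1b, -96 in Rptn, -81 in Krtdap, -45 in Serpinb12 and 30 in Stfa3. The TATA box began at -30 in Krtdap and Sprr1b, at -31 in Hrnr and Rptn and at -43 in Sprr1a. In Serpinb12, with 2 starts in RefSeq, the same letters began far from the start, at -220 for one and -201 for the other. Sprr1a and Sprr1b shared the run TATAAAAAGCCAG from the TATA box on, which 4 of the 32851 promoters hold. These matches describe the letters only.

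Small proline-rich proteins 1A and 1B are cross-linked precursors of the envelope. Sprr1a had 13.20, 11.63 and 12.80 in irradiated KO mice and 12.25, 12.68 and 10.87 in irradiated WT mice, against 6.34 and 6.69 in unirradiated KO mice and 9.35 and 11.23 in unirradiated WT mice. Its irradiated and unirradiated values were far apart in KO mice, while in WT mice replicate 3 of the irradiated group lay below the higher unirradiated array. Sprr1b had 10.81, 8.92 and 10.48 in irradiated KO mice and 11.55, 7.65 and 1.75 in irradiated WT mice, against 0.35 and 0.32 in unirradiated KO mice and 3.19 and 1.10 in unirradiated WT mice. For Sprr1b too, irradiated WT replicate 3 lay within the unirradiated range, and every other irradiated array was above all unirradiated ones.

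Hornerin and repetin are S100-fused proteins that are packed into the envelope with filaggrin. Hrnr had 12.53, 10.48 and 11.88 in irradiated KO mice and 12.10, 9.92 and 4.21 in irradiated WT mice, against 1.04 and 0.35 in unirradiated KO mice and 3.08 and 0.27 in unirradiated WT mice. Rptn had 13.60, 12.16 and 12.91 in irradiated KO mice and 12.63, 11.29 and 4.32 in irradiated WT mice, against 0.95 and 3.37 in unirradiated KO mice and 0.50 and 4.22 in unirradiated WT mice. For both genes irradiated WT replicate 3 was only just above the highest unirradiated array, by 1.13 for Hrnr and 0.10 for Rptn, and below its own array median. The other 2 probe sets of Rptn, at 1.88 to 6.28, did not pass the filter and showed no such split.

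Crct1, a cysteine-rich gene of the same complex, and Krtdap, which encodes a small secreted protein of differentiating keratinocytes, also set irradiated WT replicate 3 below the other irradiated arrays. Crct1 had 13.29, 11.65 and 12.39 in irradiated KO mice and 12.37, 12.04 and 6.42 in irradiated WT mice, against 3.31 and 1.41 in unirradiated KO mice and 1.95 and 4.23 in unirradiated WT mice. Krtdap had 14.52, 13.26 and 14.09 in irradiated KO mice and 13.66, 12.46 and 7.80 in irradiated WT mice, against 5.19 and 4.38 in unirradiated KO mice and 1.56 and 4.13 in unirradiated WT mice. All irradiated arrays were above all unirradiated ones for both genes, with irradiated WT replicate 3 in between.

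Serpinb12, a clade B serpin, and Stfa3, a stefin A, encode intracellular inhibitors of serine and of cysteine proteases. Serpinb12 had 12.78, 10.36 and 11.62 in irradiated KO mice and 11.00, 8.58 and 0.63 in irradiated WT mice, against 0.42 and 1.35 in unirradiated KO mice and 0.61 and 2.44 in unirradiated WT mice. Its other probe set, which did not pass the filter, read 7.65, 6.04 and 6.86 in irradiated KO mice and 6.62, 2.05 and 4.70 in irradiated WT mice, against 1.85 to 2.71 on the 4 unirradiated arrays. Stfa3 had 13.36, 11.91 and 12.47 in irradiated KO mice and 13.60, 10.26 and 3.98 in irradiated WT mice, against 2.86 and 2.63 in unirradiated KO mice and 4.21 and 3.85 in unirradiated WT mice. Irradiated WT replicate 3 lay within the unirradiated range for both genes on the probe set used. Stefin A and small proline-rich genes lie in families of close copies, so a probe set can read more than 1 of them, which was not tested. Some stefin A genes are also made by neutrophils. The mean of 11 neutrophil markers was 7.05 to 8.97 on irradiated arrays, 7.99 on irradiated WT replicate 3, and 4.40 to 5.78 on unirradiated ones. The markers did not all rise. Csf3r read 6.61 to 8.64 on irradiated arrays and 5.52 to 6.14 on unirradiated ones. Mpo and Elane, too dim to be tested, read 4.02 to 5.90 and 3.26 to 5.96 on irradiated arrays, against 4.79 to 5.83 and 4.01 to 5.61 on unirradiated ones. On single irradiated arrays 6 to 10 of the 11 were above every unirradiated array (29.9% to 34.9% of all genes tested). The part of neutrophils in the Stfa3 signal was not tested.

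Tmprss11a, a membrane-bound serine protease of squamous epithelia, and Ly6d, a lipid-anchored surface protein of squamous cells and of early B cells, differed from these genes on irradiated WT replicate 3. Tmprss11a had 12.63, 9.93 and 11.77 in irradiated KO mice and 9.82, 12.58 and 11.02 in irradiated WT mice, against 2.63 and 0.80 in unirradiated KO mice and 4.73 and 2.52 in unirradiated WT mice. Ly6d had 13.94, 12.08 and 13.07 in irradiated KO mice and 12.73, 13.94 and 13.30 in irradiated WT mice, against 6.03 and 6.73 in unirradiated KO mice and 9.65 and 9.84 in unirradiated WT mice. For both genes irradiated WT replicate 3 lay among the other irradiated arrays and far above the unirradiated ones. The mean of 6 B cell markers was 6.75 to 8.98 on irradiated arrays and 5.62 to 5.99 on unirradiated ones, highest on irradiated WT replicate 3, and their part in the Ly6d signal was not tested.

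**Figure D1:**
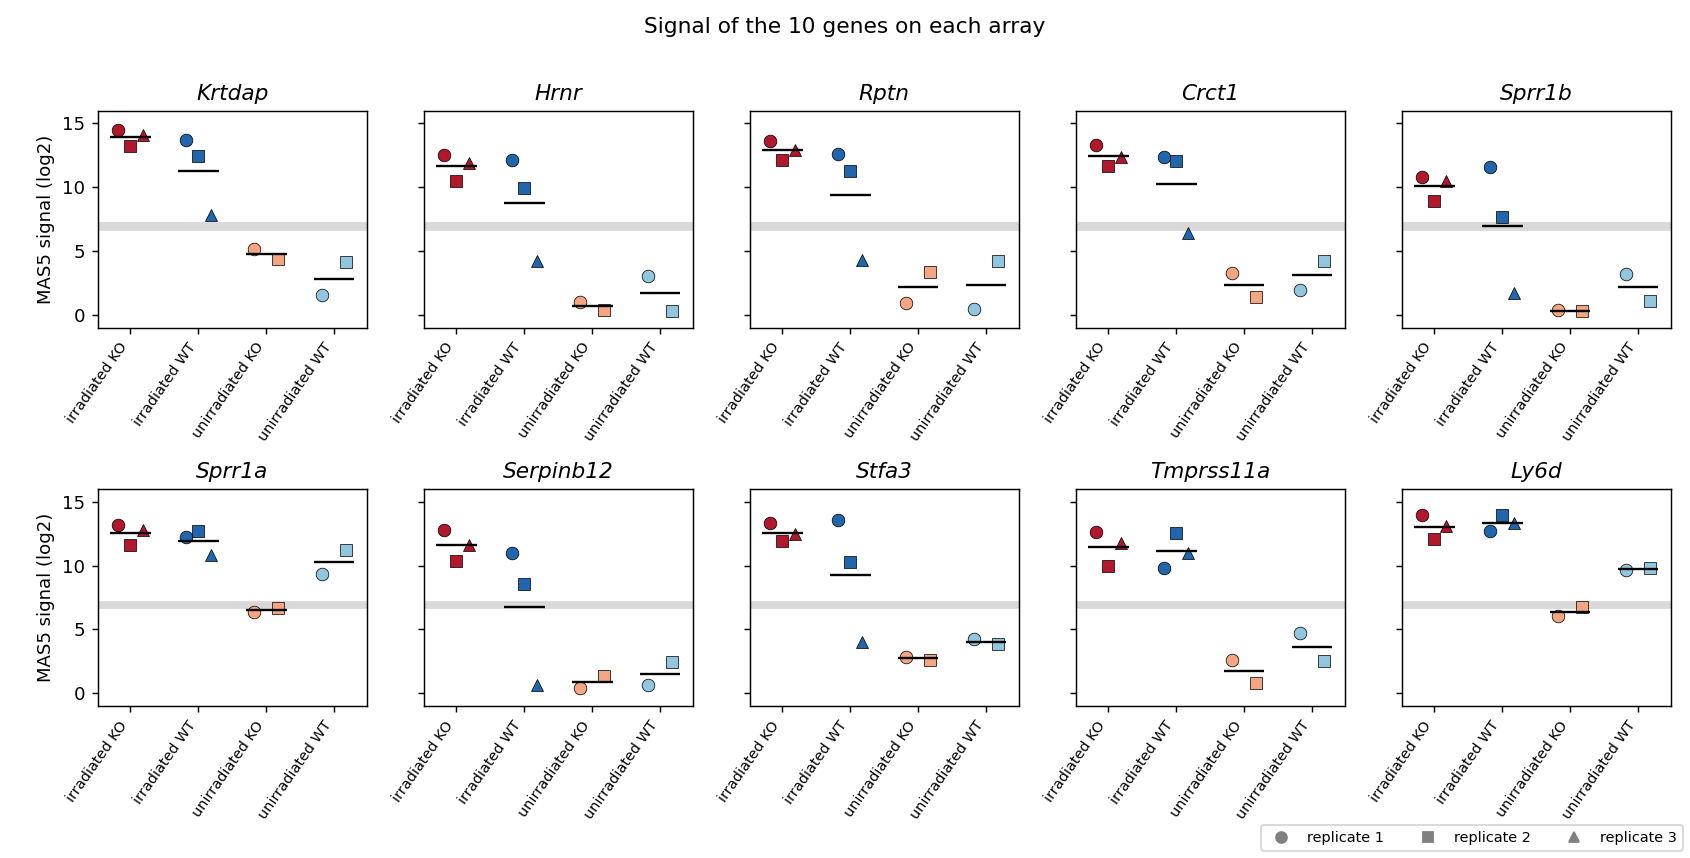
MAS5 signal (log2, vertical axis) of the 10 genes in 4 groups, with 1 point per array, the replicate number as the shape, the group mean as a bar and the range of the array medians (6.64 to 7.18) as a grey band. On irradiated WT replicate 3 (blue triangle) Sprr1b, Serpinb12 and Stfa3 lie at 1.75, 0.63 and 3.98 among the unirradiated points, whereas Tmprss11a and Ly6d lie at 11.02 and 13.30 among the irradiated ones.

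Within the irradiated KO group the 10 genes ranked the arrays alike: replicate 1 was highest for 10 of 10 and replicate 2 lowest for 10 of 10. Replicate 2 also had the highest mean of the 13 colonocyte markers of any irradiated array, at 12.74 against 11.66 to 12.13 on the other 5. In a bulk sample fewer cells of a type and less RNA per cell cannot be told apart. In irradiated WT mice replicate 3 was lowest for 8 of 10 genes and replicate 1 highest for 7. As a description over the 6 irradiated arrays, the Pearson correlation of a gene with the mean of the other 9 was 0.964 to 0.994 for Krtdap, Hrnr, Rptn, Crct1, Sprr1b, Serpinb12 and Stfa3, 0.866 for Sprr1a, 0.139 for Tmprss11a and -0.01 for Ly6d. Genes of a sample share its RNA and its array, and irradiated WT replicate 3 carries most of the spread.

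Irradiated minus unirradiated differences were large in KO mice and differed widely with the treatment of dim signals. In KO mice the 10 differences were 6.03 to 10.93, with a median of 9.78, against a median of 0.013 over the 12568 genes tested. The irradiated and unirradiated KO arrays did not overlap for 10 of 10 genes (28.4% of all genes tested were higher without overlap). All 10 unirradiated KO signals lay below the array median, and the size of the difference rests on how dim signals are treated: with 64 units added before the logarithm, the difference of Hrnr was 5.63 in place of 10.93 and that of Sprr1b 4.14 in place of 9.74. Sprr1a and Ly6d, with the smallest differences in KO mice (6.03 and 6.65), moved least, to 5.28 and 5.83.

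In WT mice the 10 differences were 1.64 to 8.46, with a median of 6.15, against 0.072 over all genes tested. Their size too rests on how dim signals are treated. With 64 units added before the logarithm and all arrays kept, that of Hrnr was 3.40 in place of 7.07 and that of Sprr1b 2.45 in place of 4.84. Sprr1a and Ly6d moved least, to 1.58 and 3.485. The groups did not overlap for 6 of 10 genes (30.8% of all genes tested were higher without overlap); those that overlapped were Sprr1b, Sprr1a, Serpinb12 and Stfa3. Without irradiated WT replicate 3 the median was 8.08, and the groups did not overlap for 10 of 10 (35.0% of all genes were then higher without overlap and 26.2% lower). The difference was then 10.21 for Krtdap (8.46 with it), 9.60 for Rptn (7.06), 9.33 for Hrnr (7.07), 9.11 for Crct1 (7.18), 8.26 for Serpinb12 (5.21), 7.90 for Stfa3 (5.25) and 7.46 for Sprr1b (4.84). It changed little for Tmprss11a (7.57 without the array and 7.51 with it), Ly6d (3.59 and 3.58) and Sprr1a (2.17 and 1.64). On that array these 3 genes read above 10, and the other 7 did not.

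**Figure D2:**
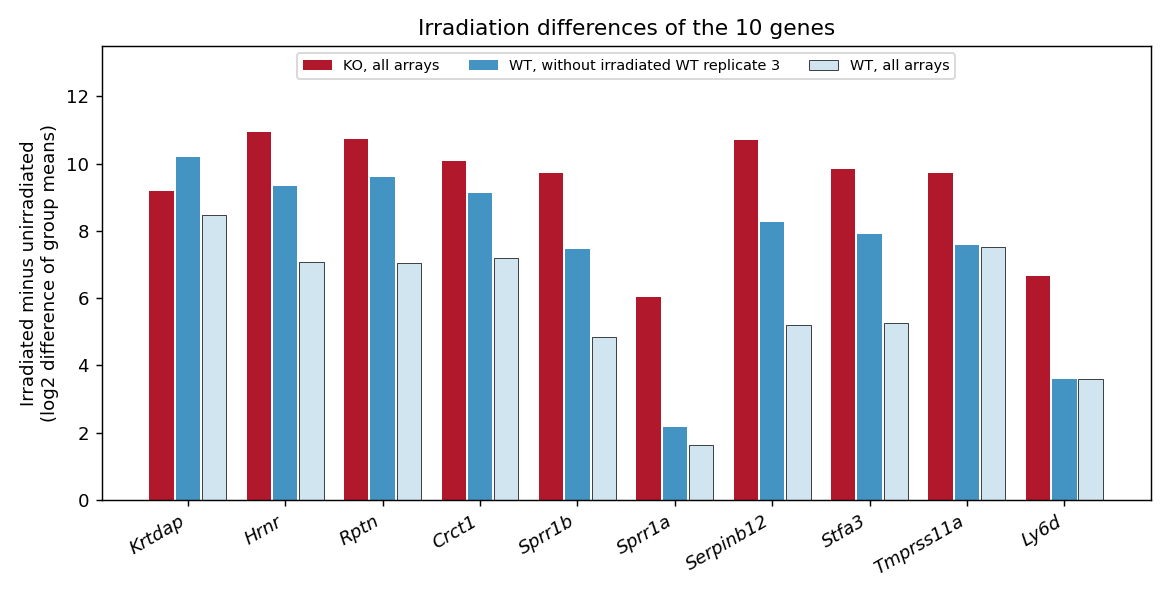
Irradiated minus unirradiated difference of group means (log2, vertical axis) for each gene in KO mice, in WT mice without irradiated WT replicate 3 and in WT mice with all arrays. Leaving the array out lengthens the WT bar of Serpinb12 to 8.26, against 5.21 with it, and leaves that of Ly6d at 3.59 against 3.58.

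Other genes of the envelope were counted in the same 2 comparisons, the 10 genes left out, with limma over all 12568 genes and a Benjamini-Hochberg adjusted p of at most 0.05. The lists were chosen with earlier results of these data known. Some listed genes, such as Flg and Lce1c, lay below the array median on every unirradiated array and passed the filter through irradiated arrays alone. These counts and those of the other lists are therefore no independent support for a difference. In KO mice 23.5% of all genes tested passed, 14.0% higher and 9.50% lower after irradiation. Of 48 other envelope genes tested, 37 were higher in irradiated KO mice and 0 lower. The 25 precursors gave 20 of these, with a median difference of 5.61 over the 25, and the 23 genes of envelope assembly and cornification gave 17, with a median of 3.94. Among precursors Sprr2d rose by 7.78 ± 1.27 (SE, adjusted p = 0.00298), Lce1b by 6.90 ± 1.21 and involucrin (Ivl) by 6.45 ± 1.16. Among assembly genes the calmodulin-like Calml3 rose by 7.41 ± 0.62 (adjusted p = 0.00013), dermokine (Dmkn) by 6.98 ± 0.89 and cornifelin (Cnfn) by 4.95 ± 0.70. The count of 37 was 19 without unirradiated KO replicate 1, 9 without unirradiated KO replicate 2, 23 without irradiated KO replicate 1 and 27 without irradiated KO replicate 3.

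In WT mice 24.1% of all genes passed, 15.8% higher and 8.34% lower. Of the same 48 envelope genes, 17 were higher and 0 lower: 5 of 25 precursors (median 3.47) and 12 of 23 assembly genes (median 2.62). Without irradiated WT replicate 3 the count was 40 higher and 1 lower, with 23 of 25 precursors higher (median 5.06) and 17 of 23 assembly genes (median 4.04). Without unirradiated WT replicate 1 it was 6 higher and 1 lower. With the sex pattern as a covariate it was 0 in WT mice, in which every irradiated array had the female pattern and every unirradiated array the male one, and 21 in KO mice.

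The families of the other genes were counted in the same way. Clade B serpins were higher for 6 of 6 tested in irradiated KO mice (3 to 6 when 1 array was left out) and for 4 of 6 in irradiated WT mice (3 to 6, and 6 without irradiated WT replicate 3). Serpinb2, also known as plasminogen activator inhibitor 2, rose by 8.37 ± 1.20 in KO mice, Serpinb11 by 5.17 ± 0.57 and Serpinb8 by 3.01 ± 0.46. Stefins were higher for 2 of 3 in KO mice (0 to 3) and 2 of 3 in WT mice (0 to 3, and 3 without irradiated WT replicate 3), with Stfa2l1 at 5.80 ± 1.33 and Csta1 at 2.67 ± 0.68 in KO mice. Of 2 other Tmprss11 proteases tested, 1 was higher in KO mice (0 to 1) and 1 in WT mice; Tmprss11e rose by 4.11 ± 0.77 in KO mice. Ly6 family genes were higher for 7 of 11 in KO mice and 5 of 11 in WT mice (2 to 5), with the surface protein Lypd3 up by 7.32 ± 0.73, the secreted Slurp1 by 4.32 ± 0.66 and Ly6e by 0.98 ± 0.12 in KO mice. Single arrays decided several of these short counts. The Ly6 count in KO mice was 5 without irradiated replicate 1 or irradiated replicate 3, and 5 with the sex covariate. In KO mice the serpin count was 3 without irradiated replicate 1 or unirradiated replicate 1, and the stefin count was 1 without irradiated replicate 1, irradiated replicate 3 or unirradiated replicate 1 and 0 without unirradiated replicate 2. Tmprss11e was not called without unirradiated KO replicate 1. In WT mice the stefin count was 0 or 1, and the Ly6 count 2 or 3, without irradiated replicate 1, irradiated replicate 2 or either unirradiated array.

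Markers of squamous cell layers differed in where they placed irradiated WT replicate 3. Keratins of basal and of activated squamous cells were high on it. The mean of the 6 basal markers was 10.29 on it, against 9.52 to 11.58 on the other irradiated arrays and 4.23 to 5.58 on the unirradiated ones. Of the 6, 5 were above every unirradiated array on each of the 6 irradiated arrays. Of all genes tested, 29.9% to 34.9% were so on single irradiated arrays. The mean of the 4 activated keratins was 10.81 on irradiated WT replicate 3, against 9.89 to 12.16 on the other irradiated arrays and 4.63 to 6.27 on the unirradiated ones, and 4 of 4 were above every unirradiated array on all 6. Keratins of the upper epidermal layers were not: the mean of 4 was 4.28, against 9.95 to 12.27 on the other irradiated arrays and 4.08 to 6.44 on the unirradiated ones, and 0 of 4 were above every unirradiated array, against 4 of 4 on each of the other 5. Krt1, a keratin of the spinous and granular layers, read 2.65 on it, against 13.05 and 11.12 on the other irradiated WT arrays, and its partner Krt10 read 8.21, against 13.99 and 12.79. Keratins of the upper layers of lining epithelia did not go one way on it. Krt13 read 11.92 there, among the other irradiated arrays (10.70 to 13.09), Krt4 read 9.64, below the other irradiated arrays and above the unirradiated ones, and Krt78 read 5.95, below every unirradiated array (6.67 to 7.84). Krt76, at 1.57 to 4.97 on all arrays, was too dim to be tested.

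In counts of genes past the adjusted p, basal markers were higher for 5 of 6 in KO mice and in WT mice, with Itgb4, an integrin subunit that colon epithelium also makes, lower in both (not lower in WT mice without irradiated replicate 2, irradiated replicate 3 or unirradiated replicate 2). Collagen 17 (Col17a1), of the junction to the basement membrane, rose by 6.73 ± 0.67 in KO mice, Trp63, a transcription factor of basal cells, by 5.55 ± 0.63 and the basal keratin Krt5 by 5.13 ± 0.60. Activated keratins were higher for 4 of 4 in both genotypes, with Krt6b up by 6.85 ± 0.71, Krt6a by 6.59 ± 0.60 and Krt17 by 4.76 ± 0.80 in KO mice. Keratins of the upper layers of lining epithelia were higher for 3 of 3 in KO mice and 2 of 3 in WT mice (3 of 3 without irradiated WT replicate 3). Their KO count was 2 without irradiated KO replicate 1 or 3 and 2 with the sex covariate. Krt13 was up by 8.65 ± 0.80, Krt4 by 6.53 ± 0.65 and Krt78 by 2.93 ± 0.87 in KO mice. Those of the upper epidermis were higher for 2 of 4 in KO mice, Krt1 at 8.77 ± 2.47 and Krt10 at 5.55 ± 1.31, and for 0 of 4 in WT mice. Without irradiated WT replicate 3 these counts were 4 of 4 and 3 of 4 (all groups of the fit share 1 estimate of the spread). The KO count of 2 was 1 without irradiated KO replicate 1 or 3 and 0 without either unirradiated KO array.

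Of the skin appendage markers, those of the sebaceous gland and those of the hair follicle both had a lower mean on irradiated WT replicate 3 than on the other irradiated arrays. Most of the 10 genes were also lowest there, and the part of these markers in the result was not tested. Sebaceous gland markers averaged 10.18 to 11.49 over 4 genes on 5 irradiated arrays, 7.55 on irradiated WT replicate 3 and 6.62 to 7.08 on unirradiated arrays. They were higher for 3 of 3 tested in KO mice (1 without irradiated KO replicate 1 or 3 or either unirradiated KO array) and for 1 of 3 in WT mice (3 without irradiated WT replicate 3). The fatty acid-binding protein Fabp5, which squamous cells also make, rose by 4.83 ± 0.39, Krt79 by 5.51 ± 1.51 and Scd3 by 4.76 ± 1.32 in KO mice. On irradiated WT replicate 3 only 1 of the 4, Fabp5 at 13.57, was above every unirradiated array (32.0% of all genes tested), with Krt79 at 5.66 and Scd3 at 5.44. Mc5r, too dim to be tested, read 5.53 to 6.93 on irradiated arrays and 5.06 to 6.00 on unirradiated ones. Hair follicle keratins averaged 4.81 to 8.78 over 12 genes on the same 5 arrays, highest on irradiated WT replicate 2, against 3.47 on irradiated WT replicate 3 and 3.24 to 3.88 on unirradiated arrays. Of 4 tested, 1 was higher in KO mice, Krt25 at 7.39 ± 2.38 with an adjusted p of 0.0497, and its call was lost without any one of 8 of the 10 arrays, irradiated WT replicates 2 and 3 being the exceptions. In WT mice 0 of 4 were higher, and 2 of 4 without irradiated WT replicate 3. Of 5 melanocyte markers, 1 was tested and did not pass in either genotype.

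Among markers of other cells, neutrophil genes were higher for 3 of 6 in KO mice and 4 of 6 in WT mice (2 without unirradiated WT replicate 2). Of these, S100a8 and S100a9, which inflamed squamous cells also make, rose by 8.44 ± 0.93 and 8.19 ± 0.85 in KO mice, and lactoferrin (Ltf) by 7.14 ± 1.38. B cell genes were higher for 2 of 5 in KO mice (0 without either unirradiated KO array), Cd79a at 3.67 ± 0.82 and Cd79b at 2.88 ± 0.66, and for 3 of 5 in WT mice (0 or 1 without irradiated WT replicate 2 or 3 or either unirradiated WT array). Absorptive colonocyte genes were lower for 6 of 13 in KO mice (10 without irradiated KO replicate 2 and 3 without unirradiated KO replicate 2) and for 8 of 13 in WT mice. The water channel Aqp8 fell by 2.30 ± 0.37 in KO mice, the sodium-proton exchanger Slc9a3 by 3.84 ± 0.67 and the intestinal transcription factor Cdx1 by 1.45 ± 0.26. With the sex covariate, KO counts were 3 for clade B serpins, 1 for stefins, 1 for sebaceous gland markers and 0 for hair follicle and upper epidermal keratins. In WT mice that covariate left 1 activated keratin and no other gene of these lists past the threshold.

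**Figure D3:**
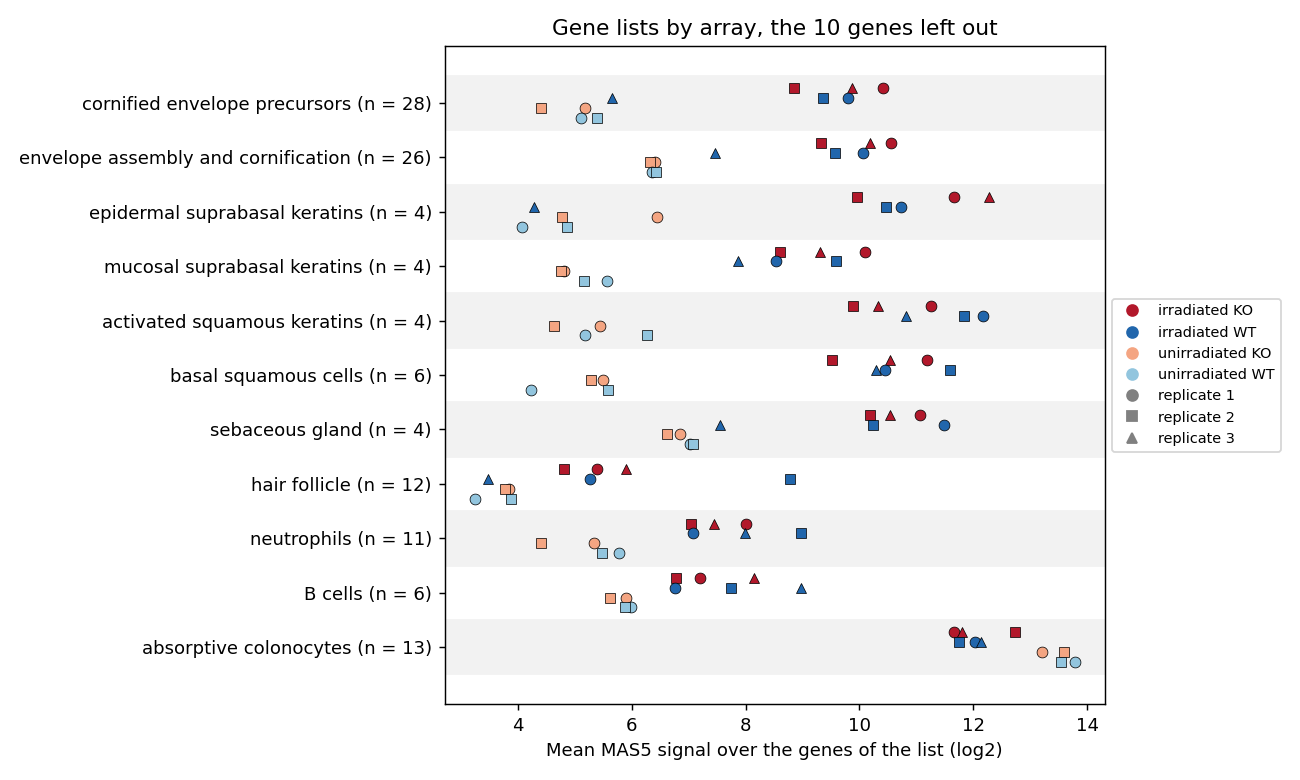
Mean MAS5 signal (log2, horizontal axis) of each gene list on each array, the 10 genes left out, with colour for the group, shape for the replicate and n the number of listed genes on the array. Irradiated WT replicate 3 (dark blue triangle) lies at 4.28 with the unirradiated arrays for epidermal suprabasal keratins and at 10.29 with the irradiated arrays for basal squamous cells.

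Sprr1b, Sprr1a, Crct1, Hrnr and Rptn lie in this order on chromosome 3, at and within the ends of a stretch of the epidermal differentiation complex. RefSeq (GRCm38.p6) places 31 other protein-coding genes between Sprr1b and Rptn, of which 21 were on the array and 19 were tested. Some of the 19, such as Flg and Lce1c, passed the filter through irradiated arrays alone. In KO mice 16 of the 19 were higher after irradiation (14.0% of all genes tested were). In WT mice 2 were, Sprr3 and 2310050C09Rik (15.8% of all genes tested were), so that count does not stand above the share of all genes. Without irradiated WT replicate 3 the count was 19 of 19 in both genotypes, and the share of all genes higher in that fit is not given here. Of the 21 on the array, 20 were above every unirradiated array on each of 5 irradiated arrays, and 6 were on irradiated WT replicate 3. That is 28.6% of the 21, against 32.0% of all genes tested on that array, and 95.2% against 29.9% to 34.9% on the other 5. The KO count was 8 without irradiated KO replicate 1, 10 without irradiated KO replicate 3, 5 without unirradiated KO replicate 1, 2 without unirradiated KO replicate 2 and 6 with the sex covariate. The WT count was 1 without irradiated replicate 1, irradiated replicate 2 or unirradiated replicate 1.

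**Figure D4:**
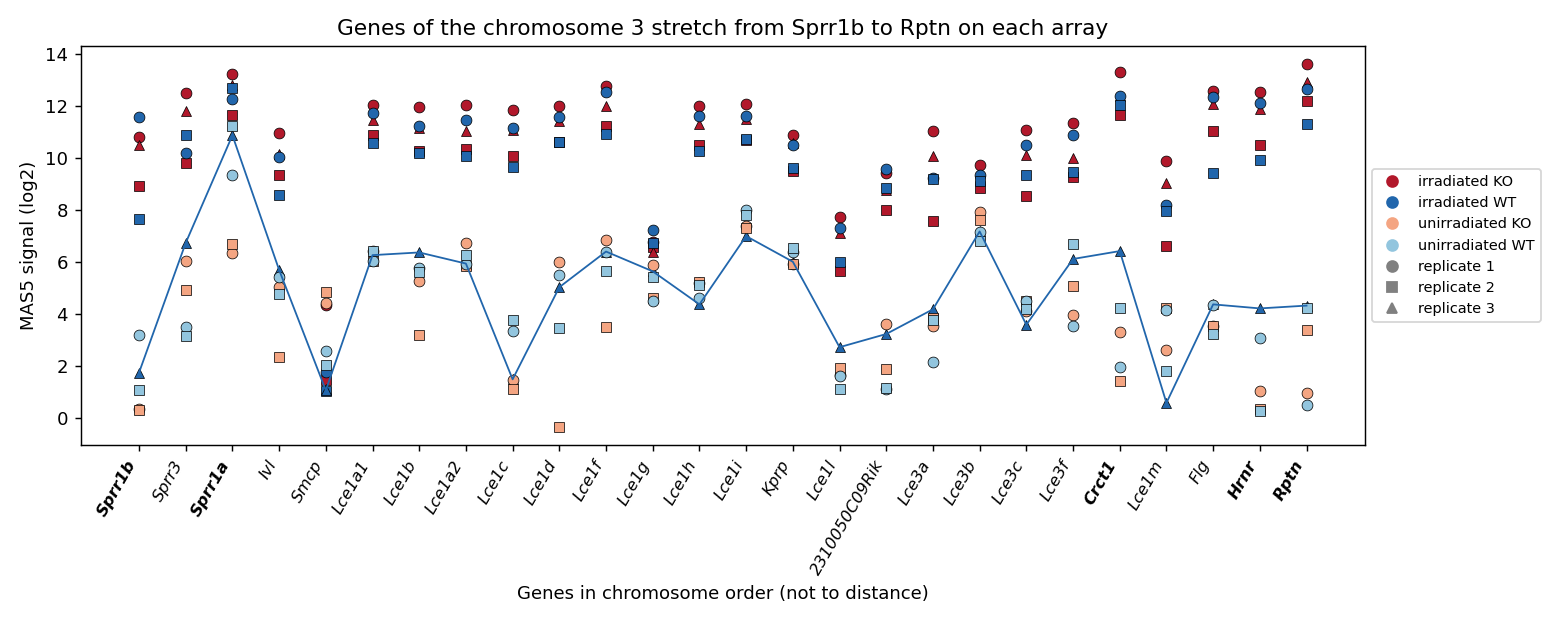
MAS5 signal (log2, vertical axis) of the genes of the stretch in chromosome order, not to distance, with 1 point per array and the 5 described genes in bold. The line joins irradiated WT replicate 3, which reads 4.37 for Flg with the unirradiated arrays and 10.87 for Sprr1a.

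Genes outside the 10 whose signal was most like theirs were ranked by the Pearson correlation with their mean, as a description among 12100 genes with an official-style symbol. Over all 10 arrays the first 8 were Dmkn (0.993), Fam25c, Capns2, Asprv1, Lce1b, Cnfn, Fads2b and Barx2 (0.981). Asprv1 encodes a protease that cuts filaggrin, and Dmkn a secreted protein of differentiating keratinocytes. Over the 6 irradiated arrays alone they were Lce1b (0.999), Lce1i, Asprv1, Serpina12, Kprp, Prom2, Sbsn and Itgb1bp2 (0.997). Lce1b read 11.93, 10.26 and 11.16 in irradiated KO mice and 11.24, 10.19 and 6.36 in irradiated WT mice, with irradiated WT replicate 3 lowest, as for 8 of the 10 genes. The arrays of a group share their treatment, and irradiated WT replicate 3 sets most of the likeness over the 6.

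The choice of the genes drew on the unirradiated KO arrays, where low values enlarge the irradiation difference, and the comparison of unirradiated KO with unirradiated WT mice uses those arrays too. Its tests of the 10 genes are therefore not independent of the choice. Ly6d averaged 6.38 ± 0.50 in unirradiated KO mice and 9.74 ± 0.14 in unirradiated WT mice (SD, n = 2 each), a difference of -3.36 ± 0.54 (SE; limma, adjusted p = 0.0194). Sprr1a averaged 6.52 ± 0.25 in unirradiated KO mice and 10.29 ± 1.33 in unirradiated WT mice (SD, n = 2 each), a difference of -3.78 ± 0.72 (SE; limma, adjusted p = 0.0434). With 64 units added before the logarithm the differences were -2.63 for Ly6d (adjusted p = 0.0508) and -3.10 for Sprr1a (adjusted p = 0.0802), so neither passed. Both genes were below the array median on both KO arrays and above it on both WT arrays, and all 4 arrays had the male sex pattern. These were 2 of the 10 genes, against 1.23% of all genes tested (0.804% lower and 0.422% higher). Without overlap, 4 of 10 were lower (18.9% of all genes) and 1, Krtdap, higher (28.9% of all genes).

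Both calls depended on the arrays and settings used. Over 19 alternatives Ly6d was called in 13, with adjusted p of 0.00379 to 0.178 and differences of -3.71 to -2.63, and Sprr1a in 8, with adjusted p of 0.0198 to 0.259 and differences of -4.72 to -2.84. Ly6d was lost without any one of the 4 unirradiated arrays (adjusted p 0.0617 to 0.178). Sprr1a was lost without either unirradiated KO array, without unirradiated WT replicate 2 and, at adjusted p of 0.0542 to 0.0691, without irradiated KO replicate 3 or irradiated WT replicate 1 or 2. The other 8 genes lay below the array median on all 4 unirradiated arrays, with differences of -1.91 to 1.94, and did not pass. Their signals there are too dim for a level to be read.

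Among the other listed genes 2 passed in the same comparison. Sprr2h, another small proline-rich gene, had 7.77 and 5.90 in unirradiated KO mice against 10.16 and 11.33 in unirradiated WT mice, a difference of -3.91 ± 0.66 (SE; limma, adjusted p = 0.0247). After irradiation it read 10.28, 9.24 and 10.05 in KO mice and 10.43, 10.62 and 9.26 in WT mice, so the irradiated groups overlapped. Ly6e, a widely expressed relative of Ly6d, had 11.55 and 11.69 in unirradiated KO mice against 12.78 and 12.62 in unirradiated WT mice, a difference of -1.08 ± 0.13 (SE; limma, adjusted p = 0.0054). That left 24 of 25 precursors and 10 of 11 Ly6 family genes, and every gene of the other 14 lists, that did not pass.

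After irradiation no gene of the 10 differed between the genotypes past the threshold, and no gene of the 12568 did (limma, 0 called; 500 genes, 3.98%, at an unadjusted p of at most 0.05). Of the 10, 1 was under that unadjusted threshold, Serpinb12, with 11.59 ± 1.21 in irradiated KO mice and 6.74 ± 5.42 in irradiated WT mice (SD, n = 3 each). Its difference was 4.85 ± 2.13 (SE). The groups overlapped for 10 of 10 genes (4.38% of all genes were higher in KO mice without overlap and 4.04% lower). The differences ran from -0.29 for Ly6d to 4.85, with a median of 2.77, and 9 of 10 were above 0. Without irradiated WT replicate 3 the median was 0.54, the groups still overlapped for 10 of 10 (7.18% of all genes were then higher without overlap and 6.02% lower), and the differences were 1.80 for Serpinb12, 0.93 for Rptn, 0.90 for Krtdap, 0.65 for Stfa3, 0.62 for Hrnr, 0.47 for Sprr1b, 0.24 for Crct1 and Tmprss11a, 0.08 for Sprr1a and -0.30 for Ly6d. The SE of the 10 differences was 0.44 to 2.13 with all arrays and 0.51 to 1.12 without irradiated WT replicate 3. The lack of a call does not show that the genotypes were alike. The female sex pattern was on 1 of the 3 irradiated KO arrays and on all 3 irradiated WT arrays, so sex pattern and genotype are partly mixed here. Among arrays of that pattern, irradiated KO replicate 1 minus the mean of the irradiated WT arrays was 0.62 to 6.05, and 0.60 to 2.99 without irradiated WT replicate 3, with 1 KO array and no test. That KO array was the highest of its group for 10 of 10 genes, which raises these differences. The irradiated KO and WT arrays also entered the choice of the genes, so this comparison is not independent of it either.

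**Figure D5:**
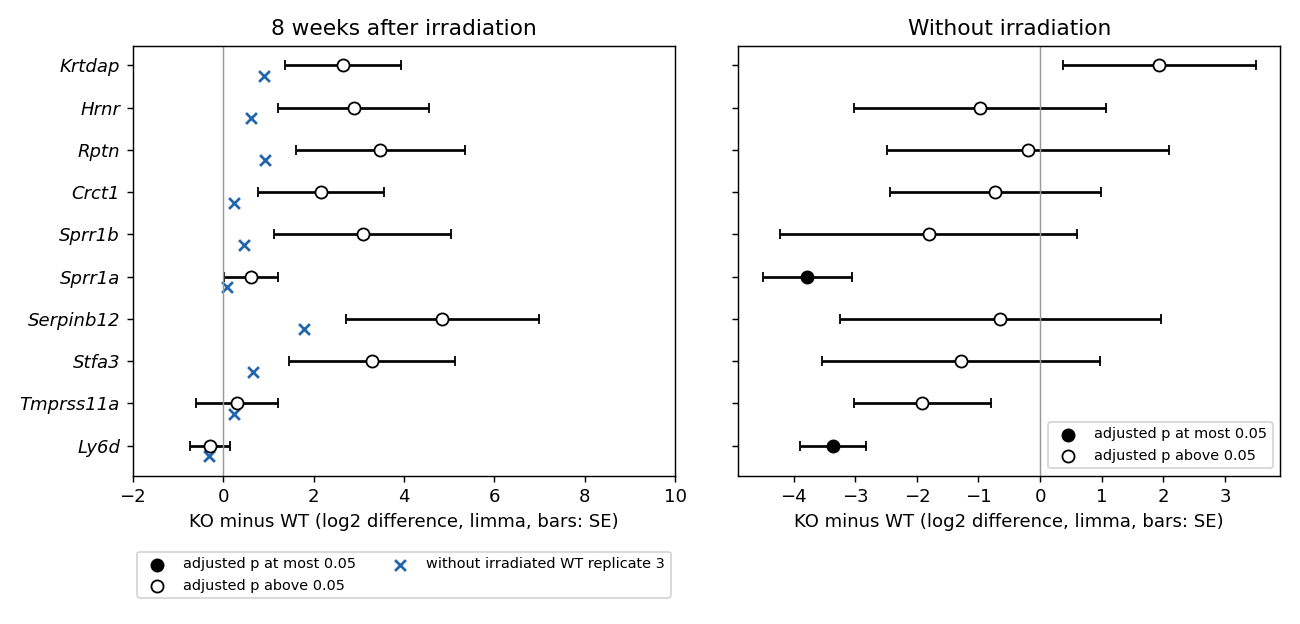
KO minus WT difference (log2, horizontal axis) of each gene 8 weeks after irradiation (left) and without irradiation (right), with SE bars from limma, filled points where the adjusted p was at most 0.05 and crosses for values without irradiated WT replicate 3. Filled points are Sprr1a at -3.78 and Ly6d at -3.36 without irradiation, and the crosses lie nearer to 0 than the points for 9 of 10 genes, Ly6d being the exception.

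The irradiation effect in KO mice minus that in WT mice is built from the differences that chose the genes, and is given for them as a description. Over all genes limma called 26 (22 without irradiated WT replicate 3), 0.207% of those tested (0.175% higher and 0.0318% lower), and 0 of them were among the 10. The differences were 0.71 for Krtdap to 5.50 for Serpinb12, with a median of 3.77 against -0.055 over all genes. Without irradiated WT replicate 3 the median was 2.04, and the differences were 3.86 for Sprr1a (4.39 with it), 3.06 for Ly6d (3.07), 2.44 for Serpinb12 (5.50), 2.28 for Sprr1b (4.90), 2.16 for Tmprss11a (2.22), 1.93 for Stfa3 (4.58), 1.60 for Hrnr (3.87), 1.13 for Rptn (3.68), 0.97 for Crct1 (2.90) and -1.04 for Krtdap (0.71). For Sprr1a and Ly6d the irradiated groups overlapped, at 12.54 ± 0.82 and 13.03 ± 0.93 in irradiated KO mice and 11.93 ± 0.95 and 13.32 ± 0.61 in irradiated WT mice (SD, n = 3 each), and the unirradiated KO arrays were the low ones.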

How the data were processed

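The study measured total RNA of distal colorectum on 10 Affymetrix arrays of 45101 probe sets. Signals came from MAS5, per the submitters' processing notes; the sources used here do not give its version. The authors deposited log2 values, as the numbers themselves show: the linear mean trimmed by 2% was 500 on every array (499.8 to 499.9). No detection calls were used, and MAS5 spreads dim signals widely, so large differences of dim genes are uncertain. Precision is limited by the number of arrays. A p-value sets a difference against the spread between these samples, pooled over the groups of the fit.

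Values were used as deposited. Of the probe sets, the platform annotation pairs 34945 with 1 gene and 932 with several; 9224 had none or were controls. Symbols of 34741 were looked up by gene ID in RefSeq (GRCm38.p6). The probe set with the highest mean represented a gene (18193 genes), and the 12568 that at least 2 arrays read above their own median entered 1 limma fit (version 3.58.1, R 4.3.3): 1 mean per group, all 10 arrays, a variance prior with trend, Benjamini-Hochberg adjustment at 0.05. The fit was tried on simulated data with independent noise for the genotype difference after irradiation and for the interaction. It called 76.1% and 65.7% of simulated log2 changes of 2, and 92.5% and 89.6% of those of 4. It also called 11 and 6 genes that had not been changed. The changed genes were drawn at random from all genes tested, so these shares do not hold for the 10 genes. Their SE was 0.44 to 2.13 for the genotype difference after irradiation and 0.70 to 3.37 for the interaction. The other steps and an outlying array were not simulated.

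The 10 genes and the gene lists were chosen with earlier results of these data known. Named were the 10 genes, up to 3 other genes of a list with the smallest p among those called in irradiated KO mice, every listed gene called for a genotype difference or the interaction, and the 8 genes most like the 10 in 2 sets of arrays. Alternatives were quantile normalization, pseudocounts of 16 and 64, no filter, no trend, every probe set, only the groups compared, the sex pattern as a covariate, the replicate number as a block and leaving out each array. Where leaving out an array left a group with 1 sample, it was taken to vary as much as the other groups do. Same-numbered samples of different groups showed no clear shared deviation from their group means (correlation -0.202 to 0.156 over 13 pairs, 3 of them over 0.1), so the numbers were not taken to pair them. In a group of 2 the deviations mirror each other, so these pairs are not independent and the check is weak. Protein sequences were not used here.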

Additional observations from a re-analysis of the deposited data

How the results depend on the processing

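Calls at 2 to 3 arrays a group moved with the arrays used, and most differences of dim genes have no stable size. After irradiation 0 genes differed by genotype, and 0 to 3 when 1 array was left out. Signs turned for Ly6d (0.62 with the sex covariate, -0.75 to 0.18 without 1 array, above 0 without irradiated KO or WT replicate 2) and Tmprss11a (-0.35 to 1.06 without 1 array, below 0 without irradiated KO or WT replicate 1). Without irradiation the 154 genes called were 236 over every probe set, 70 with the replicate number as a block and 41 to 255 without 1 array. The 2 of 10 genes called there were 1 with a pseudocount of 16, without trend or with the sex covariate, 0 with a pseudocount of 64 or the replicate block, and 0 to 2 without 1 array. Signs turned without 1 unirradiated array for Rptn (-2.06 to 1.66), Crct1 (-1.87 to 0.41), Hrnr (-2.38 to 0.42) and Serpinb12 (-1.56 to 0.27). For the interaction the 26 genes called were 16 with a pseudocount of 64, 10 without trend, 42 over every probe set, 4 with the sex covariate, 3 with the replicate block and 14 to 35 without 1 array, and Krtdap was -1.04 to 1.997 without 1 array, below 0 without irradiated WT replicate 3 or unirradiated WT replicate 2. For irradiation in KO mice the 2957 genes were 4499 over every probe set, 1706 with the sex covariate and 1189 to 3596 without 1 array, and the 37 other envelope genes 21 and 9 to 40. In WT mice the 3028 genes were 16 with the sex covariate, 1995 with the replicate block and 1323 to 3469 without 1 array, and the 17 other envelope genes 0 with the sex covariate and 6 to 40. The cause of these changes was not tested. The sex covariate rests on 1 irradiated KO array. A fit of only the groups compared was not run for the interaction, which holds all groups.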
